A study of Mus musculus with 8 samples.

Results

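Ribosomal protein genes were followed in primary hepatocytes, the parenchymal cells of the mouse liver, from p16 knockout mice and wild type littermates. A gene was taken as a member when its array row carried exactly 1 symbol of the Rpl, Rps, Rplp, Rpsa, Mrpl or Mrps kind, and where it had several rows the one with the highest mean over the 8 arrays was kept. This gave 135 genes of the 22180 that had a row of their own. Of these, 64 encode proteins of the cytosolic ribosome (40 of the large and 24 of the small subunit by name), and 71 encode proteins of the mitochondrial ribosome (43 large and 28 small). Another 19 member names stood only on rows that carry several symbols and were not analysed here, among them Rpl10, Rpl12, Rpl23, Rps2, Rps21 and Mrps6.

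The knockout group (KO) held 4 arrays of p16-/- hepatocytes and the wild type group (WT) 4 arrays of p16+/+ hepatocytes, 1 array per sample. Cells of both groups were isolated by collagenase perfusion, attached for 16 h in Williams E medium with 10% serum, 100 nM insulin and 25 nM dexamethasone, and then spent 8 h in DMEM with 1 mM glucose and 0.1% albumin, with no added insulin or dexamethasone named for that step. The labels call the samples biological replicates without saying whether each came from an animal of its own. The p-values set the difference between genotypes against the spread between samples, which may not be the spread between animals. The sources used here do not give the animals' age or which part of the gene is deleted.

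The cytosolic ribosome makes all proteins encoded in the nucleus, and its own proteins are among the most abundant mRNA products of a liver cell. Most of their mRNAs begin with a 5′ terminal oligopyrimidine (TOP) tract, a cytosine followed by a run of pyrimidines, through which the kinase complex mTORC1 and the RNA-binding protein LARP1 control their translation and stability in response to insulin and nutrients. The mitochondrial ribosome translates the few respiratory chain subunits encoded by mitochondrial DNA, and its own proteins are encoded in the nucleus and imported, so that hepatocytes need them for oxidative metabolism.

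The starts of some member genes are shown because they carry the feature by which these mRNAs are known. In the RefSeq promoters of GRCm38.p6 (250 bases before to 50 after each annotated start), 111 of the 135 members were found. In the following 30-base windows, which begin 10 bases before the annotated start, capitals mark the TOP tract, taken as a C at the start followed by at least 4 pyrimidines.
Rps6, chr4:86857348-86857377, minus strand: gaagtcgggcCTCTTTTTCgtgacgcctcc
Rpl28, chr7:4792955-4792984, plus strand: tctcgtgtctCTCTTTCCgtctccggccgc
Rplp2, chr7:141447641-141447670, plus strand: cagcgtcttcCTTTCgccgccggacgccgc
Rpl15, chr14:18270967-18270996, minus strand: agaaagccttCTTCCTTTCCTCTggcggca
A second set of windows begins at the annotated start itself and shows factor motifs found in other members, with the motif in capitals: the 10 letters searched for YY1 in Mrps18a, and CCGGAAGT, the letters bound by GABP and other ETS factors, in Rpl11 and Rps27l.
Mrps18a, chr17:46111004-46111033, plus strand: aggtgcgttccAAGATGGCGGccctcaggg
Rpl11, chr4:136053364-136053393, minus strand: acggggCCGGAAGTctccctctctcttcct
Rps27l, chr9:66946086-66946115, plus strand: gcctctatcCCGGAAGTtgctgaggggcgc

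A TOP tract at the annotated start was found in 11 of 58 cytosolic promoters (19%) and in 0 of 68 mitochondrial ones, against 2.51% of the 32851 promoters of the table. CCGGAAGT, searched on both strands of the 300 bases, was present in 19% of cytosolic, 14.7% of mitochondrial and 3.89% of all promoters. The YY1 letters, those in capitals in the Mrps18a window, were searched the same way and found in 0 cytosolic and 5 mitochondrial promoters (7.35%), those of Mrpl35, Mrpl37, Mrps11, Mrps18a and Mrps27, against 0.852% of all. The NRF1 motif was present in 3.45%, 4.41% and 0.971%, and the E-box CACGTG, which MYC binds, in 10.3%, 10.3% and 7.15% of cytosolic, mitochondrial and all promoters. None of these letter strings contains another. The tract was required to begin exactly at the annotated start, so an mRNA whose annotated start lies a few bases off is counted as having none.

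Values are log2 expression after RMA (robust multi-array average), which forces the arrays to 1 distribution, so a shift shared by all genes could not be seen. Array medians ran from 3.76 to 3.88, and arrays of 1 genotype correlated at 0.985 to 0.993, those of different genotypes at 0.973 to 0.983. The row for Cdkn2a, the gene of p16, averaged 4.53 ± 0.31 in KO and 4.53 ± 0.28 in WT hepatocytes (SD, n = 4 each; two-sided exact permutation p = 1, the smallest possible being 0.0286), and its neighbour Cdkn2b averaged 5.66 ± 0.08 and 5.62 ± 0.20 (p = 0.714). Where the Cdkn2a probes lie relative to the deletion is not given, so this row checks nothing. All 12 endothelial markers fell in the KO group and 9 of 14 hepatocyte markers rose, as given with the gene groups below.

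Of the 135 members, 132 had a mean above the 40th percentile of all array rows (3.32) and were tested. In all 2 of 62 tested cytosolic members passed an adjusted p of 0.05 (limma's moderated test across all genes, Benjamini-Hochberg), Rps4l and Rpl32, both lower in KO cells. Of 70 tested mitochondrial members 4 passed, with Mrps18a and Mrpl54 higher and Mrpl21 and Mrpl19 lower in KO cells. Across all 15380 genes tested, 13.8% passed (7.02% higher and 6.76% lower), against 3.23% of the cytosolic and 5.71% of the mitochondrial members. With any 1 array left out, 1 to 2 cytosolic and 0 to 3 mitochondrial members passed. Changes of the tested members lay between -0.68 and 0.45 on the log2 scale, where those of all genes reached from -3.15 to 3.89.

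**Figure D1:**
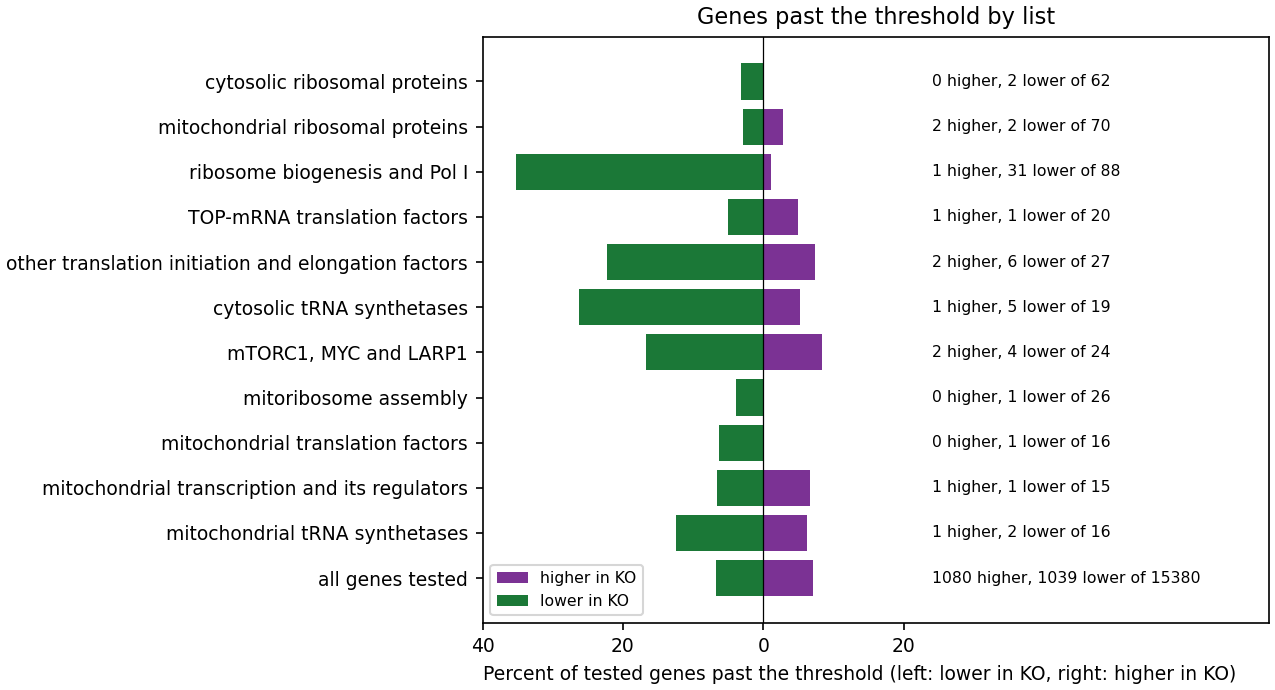
Percent of tested genes past an adjusted p of 0.05 in limma's test of KO against WT hepatocytes, by gene list; bars to the right are genes higher in KO and bars to the left genes lower in KO, with the counts beside them. The 2 ribosomal protein lists have short bars (0 higher and 2 lower of 62, 2 higher and 2 lower of 70) beside the list of ribosome biogenesis genes (1 higher and 31 lower of 88).

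Rps4l, a paralog of the X-linked small-subunit gene Rps4x, had the largest change of any tested member. It read 4.87, 4.49, 4.88 and 4.67 in the KO arrays, against 5.14, 5.67, 5.50 and 5.30 in the WT arrays. Every KO value lay below every WT value. The log2 change was -0.68 (SE 0.13, adjusted p = 0.0060 in limma's test, 0.625-fold), and it passed the threshold of 0.05 in all 22 alternative settings that were run. Rps4x itself averaged 10.75 ± 0.09 in KO and 10.90 ± 0.05 in WT arrays (SD, n = 4 each), a change of -0.15 that did not pass (adjusted p = 0.304). How far transcripts of Rps4x reach the probes of the Rps4l row was not tested, so the row is uncertain as a measure of Rps4l alone.

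Rpl32, which encodes a large-subunit protein often used as a reference in transcript measurements, read 10.81, 10.74, 10.83 and 10.91 in KO arrays, against 11.13, 11.15, 11.12 and 11.12 in WT arrays. The 4 WT values lay close together, and all KO values lay below them. The log2 change was -0.31 (SE 0.08, adjusted p = 0.0264, 0.808-fold). It stayed past the threshold when KO replicate 4 was left out (adjusted p = 0.0166), and it did not pass without any 1 of the other 7 arrays (0.0529 to 0.0819 in limma's test), while the change itself stayed between -0.34 and -0.28.

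Mrps18a rose most among the mitochondrial members. Its name places it in the small subunit, but its protein sits in the large subunit of the mammalian mitochondrial ribosome. It read 7.16, 6.90, 7.10 and 7.24 in KO arrays, against 6.64, 6.90, 6.69 and 6.36 in WT arrays. KO replicate 2 and WT replicate 2 had almost the same value, and the other KO values lay above all WT values. The log2 change was 0.45 (SE 0.12, adjusted p = 0.0319, 1.37-fold). It held without KO replicate 2 (0.0307) and without WT replicate 2 (0.0196) and did not pass without any 1 of the other 6 arrays (adjusted p = 0.0604 to 0.0824 in limma's test). The YY1 letters of its start are those printed above.

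Mrpl54, a large-subunit protein with no bacterial counterpart, also rose, with 8.51, 8.30, 8.47 and 8.47 in KO arrays, against 8.23, 8.11, 8.19 and 8.04 in WT arrays. All KO values lay above all WT values. The log2 change was 0.30 (SE 0.09, adjusted p = 0.0484), and the call held without KO replicate 2 (0.0480) and was lost without each other array in turn (0.0692 to 0.128 in limma's test).

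Mrpl21 and Mrpl19, large-subunit proteins with bacterial homologues, fell. Mrpl21 read 6.21, 6.19, 6.34 and 6.17 in KO arrays, against 6.40, 6.56, 6.57 and 6.59 in WT arrays. Mrpl19 read 7.03, 6.96, 6.92 and 6.97 in KO arrays, against 7.36, 7.12, 7.39 and 7.21 in WT arrays. Neither gene had overlapping groups, and the gap was narrowest for Mrpl21, between KO replicate 3 and WT replicate 1. The log2 changes were -0.30 for both (SE 0.09 each, adjusted p = 0.0418 for Mrpl21 and 0.0473 for Mrpl19 in limma's test). The Mrpl21 call held without WT replicate 1 (0.0443) or KO replicate 3 (0.0436) and was lost without each other array (0.0633 to 0.103), and the Mrpl19 call held without WT replicate 2 alone (0.0368) and was otherwise lost (0.0604 to 0.132).

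**Figure D2:**
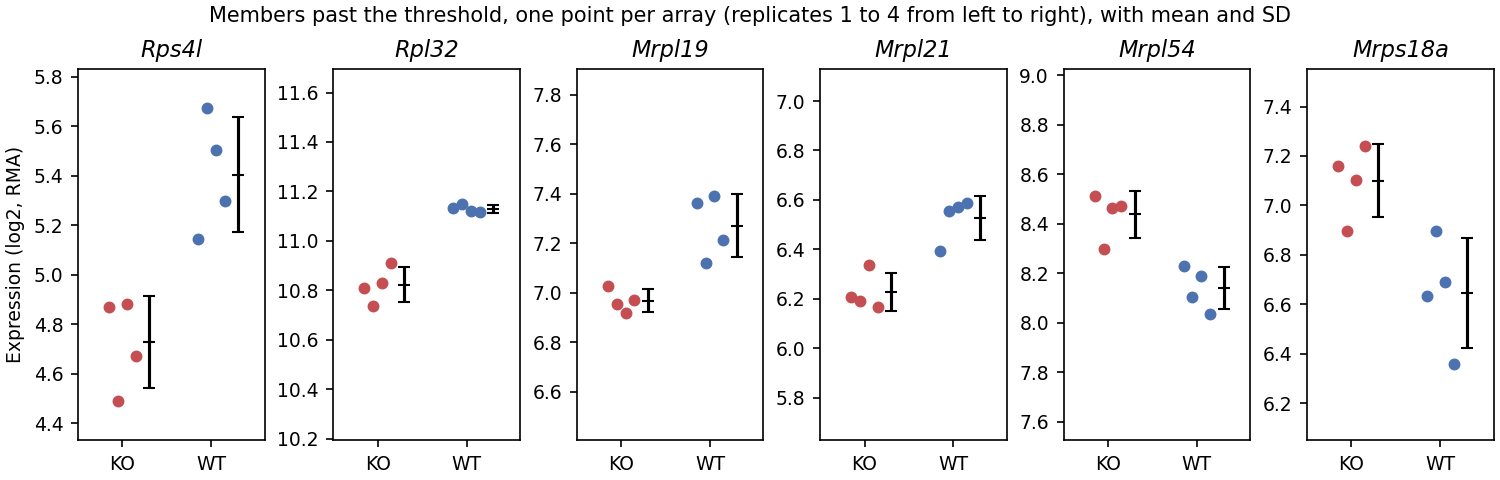
Log2 expression (RMA) of the 6 members past an adjusted p of 0.05, with 1 point per array, KO left of WT in each panel, and the mean with its SD (n = 4) beside the points. In 5 panels the groups do not overlap; in the panel of Mrps18a KO replicate 2 and WT replicate 2 lie level at 6.90.

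Just short of the threshold stood Mrps22 (log2 change -0.27, adjusted p = 0.0659), Rpl6 (-0.51, 0.0785), Mrpl52 (-0.25, 0.0819), Rpl3 (-0.34, 0.0856) and Mrpl23 (0.28, 0.0990), the members with an adjusted p between 0.05 and 0.1 in limma's test, listed after their values were seen. For Mrps22, a mitochondria-specific small-subunit protein, KO arrays read 7.25, 7.04, 7.10 and 7.11, against 7.49, 7.33, 7.40 and 7.35 in WT arrays. Rpl6, of the cytosolic large subunit, read 5.16, 5.04, 4.28 and 5.02 in KO arrays, against 5.25, 5.49, 5.50 and 5.29 in WT arrays. Groups were separate for both genes, and KO replicate 3 was far below the other KO arrays for Rpl6. Without that array the Rpl6 change was -0.31 (adjusted p = 0.0902 in limma's test). The Rpl6 row was dim, with a mean of 5.13 over the 8 arrays. The row of Rpl6l, looked up after these values were seen, averaged 9.93 and changed by -0.07 (adjusted p = 0.738 in limma's test). How far the rows of Rpl6 and Rpl6l measure separate transcripts was not tested. Mrpl23 passed without KO replicate 2 (change 0.36, adjusted p = 0.0428 in limma's test).

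Although few members passed, the cytosolic members leaned one way. Of the 62 tested, 48 had a change below 0 (77.4%), against 54.8% of all genes, and their median log2 change was -0.11, against -0.02 for all genes. An unadjusted p under 0.05 was reached by 10 of the 62 cytosolic and 16 of the 70 mitochondrial members, where 26.9% of all genes reached it. In 15 cytosolic members every KO array lay below every WT array and in 0 every KO array lay above. Of all genes tested, 20.2% had groups that did not overlap (11.1% with KO lower and 9.13% with KO higher). Besides Rps4l, Rpl32 and Rpl6, the 15 were Rpl4, Rpl7a, Rpl13, Rpl14, Rpl21, Rpl28, Rpl29, Rpl41, Rps6, Rps7, Rps9 and Rps18, listed after their values were seen. Of the mitochondrial members 46 of 70 were below 0 (65.7%), with a median of -0.08, and the groups were separate in 12, with KO lower in 11 and higher in Mrpl54. These shares describe the lists and carry no test.

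The leaning stood in members with bright rows. Of the 23 cytosolic members with a mean of 10 or above over the 8 arrays, all had a change below 0, with a median of -0.13 and 1 call, and of the 12 between 8 and 10, 11 did, with a median of -0.14. Among all genes in the same 2 ranges, 48.1% and 56.8% were below 0, the medians were 0.01 and -0.04, and 23.9% and 24.8% were called. Below a mean of 6, 10 of 19 cytosolic members were below 0, with a median of -0.01. The mitochondrial members showed the same order, with 11 of 13 below 0 between 8 and 10 (median -0.15) and 8 of 15 below 6 (median -0.0040). The level ranges were chosen after the values were seen, and the brightness of a row depends on its probes as well as on the mRNA.

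**Figure D3:**
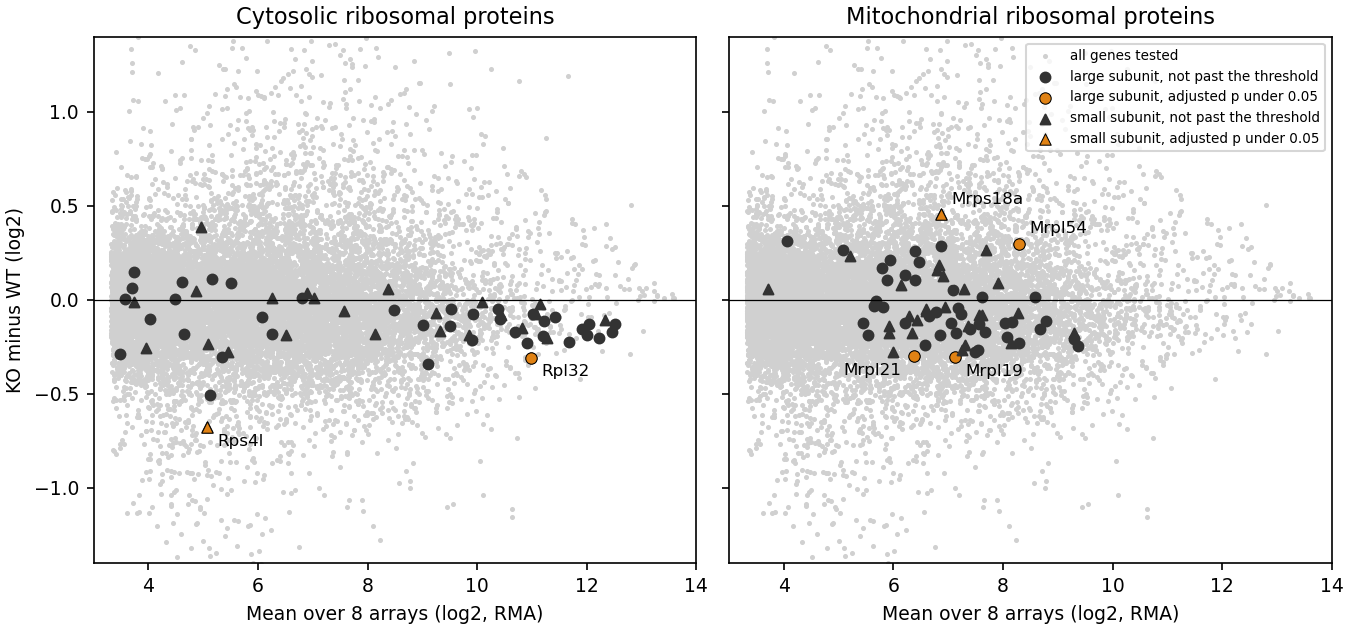
Log2 change (KO minus WT) against the mean over 8 arrays (log2, RMA) for the tested cytosolic (left) and mitochondrial (right) members, over all genes tested in grey; circles are large-subunit and triangles small-subunit members, orange those past an adjusted p of 0.05. The 23 cytosolic members at a mean of 10 or above all lie below 0, with Rpl32 the lowest. Genes with changes beyond the vertical axis are not drawn.

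Among the bright members was Rps6, the small-subunit protein phosphorylated by the S6 kinases downstream of mTORC1. Rps6 read 12.23, 12.29, 12.31 and 12.29 in KO arrays, against 12.45, 12.38, 12.36 and 12.37 in WT arrays. The groups were separate, though by less than the range of values within either. The change of -0.11 did not pass (adjusted p = 0.419 in limma's test, 95% interval -0.28 to 0.06). Rpl28 and Rpl21, the large-subunit members with the brightest rows, also had separate groups and did not pass. Rpl28 averaged 12.45 ± 0.05 in KO and 12.58 ± 0.03 in WT arrays (SD, n = 4 each, change -0.13, adjusted p = 0.332 in limma's test). For Rpl21 the means were 12.37 ± 0.05 and 12.54 ± 0.03 (change -0.17, adjusted p = 0.190 in limma's test). Rps12 averaged 11.17 ± 0.14 in KO and 11.37 ± 0.06 in WT arrays, a change of -0.20 with overlapping groups, and Rps9 averaged 9.75 ± 0.07 and 9.94 ± 0.04, a change of -0.19 with separate groups. The other row of Rps9, with a mean of 8.34, changed by -0.02.

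With limma's variance prior allowed to vary with the level of a gene, an alternative setting, 10 of 62 cytosolic members passed, all lower in KO cells. Beside Rps4l and Rpl32 these were Rpl3, Rpl13, Rpl15, Rpl21, Rpl27, Rpl29, Rplp1 and Rps9. That is 16.1% of the tested cytosolic members. Of the 70 mitochondrial ones 6 passed (8.57%), and the same setting called 17% of all genes (8.73% lower). For members with bright rows the call therefore depends on how the spread of a gene is estimated, while the size of the changes is the same in both settings.

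By function within the cytosolic ribosome, the stalk proteins, which recruit the translational GTPases, were Rplp0 (-0.14), Rplp1 (-0.19) and Rplp2 (-0.10), none past the threshold (adjusted p = 0.196 to 0.727). Rplp1 read 11.93, 11.80, 11.88 and 12.05 in KO arrays, against 12.09, 12.04, 12.11 and 12.17 in WT arrays, and only KO replicate 4 reached into the WT range. Other rows of Rplp0 and Rplp1 gave changes above 0 (0.02 and 0.06). Rpl5 and Rpl11, which with the 5S rRNA can bind MDM2 and so link ribosome assembly to p53, had changes of -0.18 (SE 0.18) and -0.29 (SE 0.18) with overlapping groups (adjusted p = 0.585 and 0.355). Rpl11 read 3.25, 3.25, 3.91 and 2.98 in KO arrays, against 3.39, 3.70, 3.91 and 3.55 in WT arrays, and KO replicate 3 was the KO array that reached into the WT range. Without that array Rpl11 passed (change -0.48, adjusted p = 0.0485 in limma's test), and without KO replicate 4 its change was -0.17, while that of Rpl5 ran from -0.33 to -0.07 when 1 array was left out. Of 14 tested genes mutated in Diamond-Blackfan anaemia, an inherited red cell aplasia, 0 passed, 11 were below 0 (78.6%) and the median was -0.13, beside 77.4% below 0 among all tested cytosolic members and 13.8% called among all genes. In the large subunit 1 of 38 tested members passed (median -0.13) and in the small subunit 1 of 24 (median -0.08).

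Paralogs known for restricted expression gave little signal apart from Rps4l. Rpl3l, the muscle paralog of Rpl3, averaged 3.81 ± 0.14 in KO and 3.66 ± 0.13 in WT arrays (SD, n = 4 each; change 0.15, adjusted p = 0.402), where Rpl3 had -0.34. Rpl39l averaged 3.72 ± 0.36 in KO and 3.66 ± 0.07 in WT arrays, and its parent Rpl39 3.58 ± 0.15 and 3.58 ± 0.13, both rows being near the filter of 3.32. Rps27l, a p53 target, averaged 7.02 ± 0.16 in KO and 7.01 ± 0.12 in WT arrays (change 0.01, 95% interval -0.22 to 0.24), and Rps27 6.91 ± 0.09 and 6.87 ± 0.28 (change 0.04). Rpl10l, known from the testis, averaged 2.00 ± 0.11 in KO and 2.05 ± 0.09 in WT arrays, below the filter, and was not tested, as was the case for Rpl32l (1.83 ± 0.35 and 1.94 ± 0.30).

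The largest cytosolic rise did not pass. Rps20 read 5.22, 5.03, 5.30 and 5.10 in KO arrays, against 4.76, 5.01, 5.11 and 4.21 in WT arrays, a change of 0.39 (SE 0.17, adjusted p = 0.175) in which WT replicate 4 was lowest. Its other row had a change of -0.13. Rps16 (-0.25), Rps15 (-0.01) and Rpl11 had dim rows with SE between 0.18 and 0.25. Over all members, 31 had at least 2 rows above the filter, and in 15 of these the rows changed in both directions. Ribosomal protein pseudogenes with a row of their own numbered 15, of which 9 were tested and 0 passed; transcripts of such copies and of the parent gene share sequence, so rows of this family may pick up more than 1 transcript.

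In the mitochondrial large subunit 3 of 43 tested members passed (median -0.11) and in the small subunit 1 of 27 (median -0.07). With Mrps18a and Mrps30 counted in the large subunit, where their proteins sit, the counts were 4 of 45 and 0 of 25. Mrps30 averaged 8.23 ± 0.07 in KO and 8.31 ± 0.10 in WT arrays (SD, n = 4 each; change -0.07, adjusted p = 0.664). Of the relatives of Mrps18a, neither passed: Mrps18b averaged 9.20 ± 0.05 in KO and 9.38 ± 0.08 in WT arrays (change -0.18, adjusted p = 0.198) and Mrps18c 5.33 ± 0.16 and 5.10 ± 0.22 (0.23, 0.275); differences between the paralogs' changes were not tested. Members with a bacterial homologue passed in 2 of 42 cases, both lower in KO, and mitochondria-specific members in 2 of 28, both higher, with Mrps18a counted among the second by its place in the ribosome. These shares, 4.76% and 7.14%, lie below the 13.8% of all genes, and the difference between the 2 kinds was not tested. Mrps36, whose product is now assigned to the 2-oxoglutarate dehydrogenase complex, averaged 3.42 ± 0.23 in KO and 3.21 ± 0.27 in WT arrays and was not tested.

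Other mitochondrial members spread to both sides. Mrpl48 averaged 5.21 ± 0.18 in KO and 4.95 ± 0.09 in WT arrays (SD, n = 4 each; change 0.26), and Mrpl27 4.22 ± 0.11 and 3.91 ± 0.28 (0.31). Mrps27, an RNA-binding protein of the small subunit, averaged 5.85 ± 0.22 and 6.12 ± 0.16 (-0.28), and Mrps14 3.75 ± 0.20 and 3.69 ± 0.19 (0.06). Mrpl52 read 9.19, 9.20, 9.26 and 9.28 in KO arrays, against 9.47, 9.50, 9.59 and 9.36 in WT arrays, with separate groups. Mrpl24 read 9.23, 9.05, 9.21 and 9.25 in KO arrays, against 9.47, 9.47, 9.48 and 9.16 in WT arrays, so that WT replicate 4 lay within the KO range. None of these passed. Of the proteins of this ribosome that carry other names, Ptcd3 of the small subunit rose, at 10.37 ± 0.29 in KO and 9.77 ± 0.12 in WT arrays (change 0.60, SE 0.14, adjusted p = 0.0135 in limma's test; 0.07 and 0.669 with the mean of its rows), while Dap3 (0.09), Gadd45gip1 (0.06) and the insertase Oxa1l (0.04), which binds the ribosome, did not pass. Outside the name rule of the cytosolic ribosome, Fau (0.02) and Rpl7l1 (-0.34) did not pass.

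Averaged over the tested members, the cytosolic class had 8.22, 8.11, 8.17 and 8.20 in KO arrays, against 8.32, 8.26, 8.37 and 8.22 in WT arrays. The difference was -0.11, with KO replicate 1 and WT replicate 4 level. The mitochondrial class had 6.98, 6.85, 6.93 and 6.90 in KO arrays, against 6.98, 6.94, 7.03 and 6.88 in WT arrays, a difference of -0.04 with overlapping groups. Within an array, the mitochondrial mean minus the cytosolic mean ran from -1.30 to -1.24 in KO and from -1.35 to -1.32 in WT arrays, which do not overlap, a difference of 0.07. By medians of gene changes the classes differed by 0.03, and this turned to -0.013 when the row of highest variance was used for each gene.

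**Figure D4:**
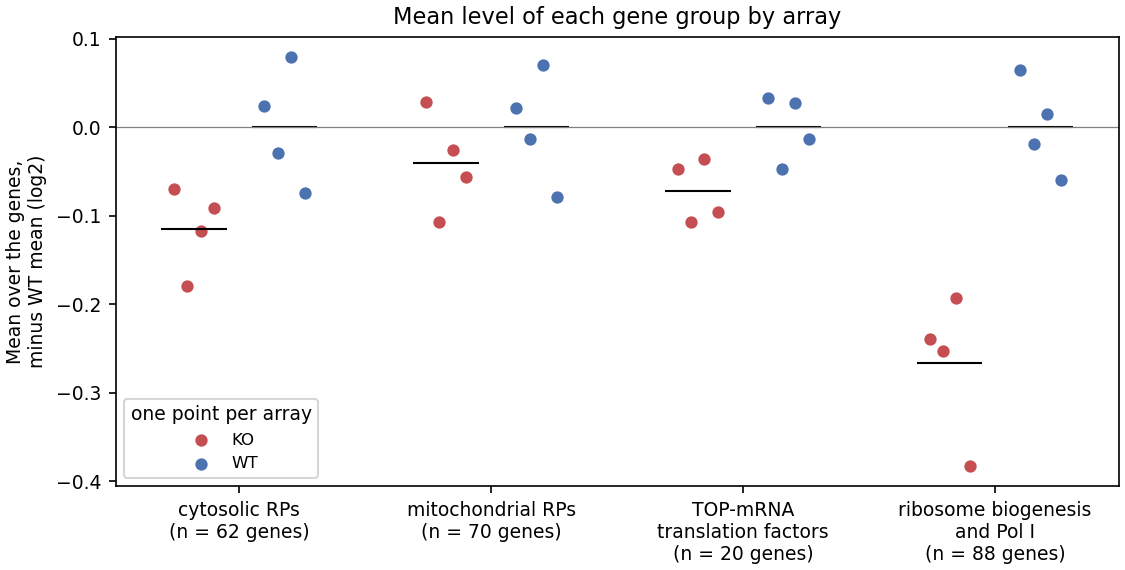
Mean over the tested genes of 4 groups in each array, as the difference from the mean of the WT arrays (log2), KO left of WT; each point is 1 array and the short line is the mean of the 4 arrays. The cytosolic and mitochondrial ribosomal protein (RP) means of the 2 genotypes overlap, whereas the KO arrays of the ribosome biogenesis group all lie below the WT arrays.

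The 10 tested cytosolic genes with a TOP tract at the annotated start had a median change of -0.12 (8 below 0, 0 called), and the 37 with a promoter in the table and no tract had -0.09 (29 below 0, 0 called). The 15 tested cytosolic genes without a promoter in the table had -0.14 (11 below 0) and held both calls, so the counts called say nothing about the tract. Rows of the tract genes were also brighter, with a median level of 10.86 against 8.37 for those with no tract. Of the 5 mitochondrial genes with the YY1 letters, 4 had a change below 0 and Mrps18a rose. The 10 tested mitochondrial genes with the ETS letters had a median of -0.11 (0 called), and the 51 without had -0.08 (2 called).

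Beyond the members themselves, genes that build the cytosolic ribosome were counted. Of 88 tested genes of ribosome biogenesis and RNA polymerase I, 31 fell and 1 rose (36.4% called, beside 13.8% of all genes). The median change was -0.23, and 80 were below 0. Their mean was 7.73 ± 0.08 in KO and 8.00 ± 0.05 in WT arrays (SD, n = 4 each), and the groups did not overlap. The rows of this list had a median level of 7.85. Among all genes, 19.4% were called at a mean of 6 to 8 and 24.8% at 8 to 10. Dkc1, the pseudouridine synthase of H/ACA snoRNPs, averaged 7.36 ± 0.08 in KO and 8.43 ± 0.13 in WT arrays (change -1.07, SE 0.10, adjusted p = 2.98e-05 in limma's test). Nop56, a core protein of C/D snoRNPs, had a change of -0.66 that shrank to -0.16 with the mean of its rows and -0.28 with the row of highest variance and then did not pass (adjusted p = 0.458 and 0.582 in limma's test). The change was -0.66 for Wdr43 of the small-subunit processome and -0.59 for Polr1b, the second-largest subunit of RNA polymerase I. Nop53, a large-subunit assembly factor, was the gene that rose (0.30, adjusted p = 0.0440), named after its value was seen.

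In a list of other genes whose mRNAs carry a TOP tract, mostly translation factors, 2 of 20 passed, with Nap1l1 lower (-0.36) and Vim higher (0.38). Eif3a (-0.29) and Pabpc1 (-0.22) did not pass. Nap1l1 and Vim encode a histone chaperone and an intermediate filament protein, not translation factors, and stand in the list for their tract. Of 27 other initiation and elongation factors 6 fell and 2 rose (29.6% called), where the TOP list had 10% called. Of all genes tested 13.8% were called, with 19.4% at a mean of 6 to 8 and 24.8% at 8 to 10. The helicase gene Eif4a2 averaged 9.07 ± 0.04 in KO and 8.27 ± 0.08 in WT arrays (SD, n = 4 each; change 0.80, adjusted p = 8.69e-05 in limma's test), and the change was 0.33 with the mean of its rows (adjusted p = 0.0447). Eif2b2 also rose (0.38), and Eif1a (-0.35) and Eif2b3 (-0.42) fell. In the list of mTORC1, MYC and LARP1 genes 4 of 24 fell and 2 rose (25% called). The list had a median change of 0.06, with 15 genes above 0. Myc, which drives transcription of ribosome genes, averaged 9.08 ± 0.18 in KO and 9.79 ± 0.08 in WT arrays (change -0.72, adjusted p = 0.000968 in limma's test). Its partner Max (-0.36) and the mTORC1 subunit Rptor (-0.34) also fell (adjusted p = 0.0276 and 0.0429 in limma's test; past the threshold in 15 and 10 of 22 alternatives), and Mxd4, which competes with MYC for Max, rose (0.51). Also called in that list were Deptor, lower (-0.54), and the S6 kinase gene Rps6kb2, higher (0.50). Their adjusted p was 0.0454 and 0.0485 in limma's test, and they are named after their values were seen. Cytosolic tRNA synthetases fell in 5 of 19 cases and rose in 1 (31.6% called), with Wars (-0.69), Rars (-0.40), Eprs (-0.41) and Lars (-0.40) among the falls.

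Lists around the mitochondrial ribosome had 3.85% to 18.8% of their tested genes past the threshold, on both sides of the 13.8% of all genes. Mitochondrial translation factors passed in 1 of 16 cases, Gatc of the glutamyl-tRNA amidotransferase (-0.50), while Mtif2 (-0.29), Mtrf1l (-0.21) and Tsfm (-0.21) did not. Assembly factors passed in 1 of 26, the GTPase Gtpbp10 (-0.43), and Tfb1m (-0.51), Mettl17 (0.28) and Ddx28 (-0.39) fell short. In the list of mitochondrial transcription 2 of 15 passed. Ppargc1a, the fasting-induced coactivator of mitochondrial biogenesis, averaged 6.52 ± 0.28 in KO and 5.41 ± 0.14 in WT arrays (SD, n = 4 each; change 1.11, SE 0.14, adjusted p = 0.000342 in limma's test), and Twnk, the helicase of mitochondrial DNA, fell (-0.50). Pprc1 (-0.35) and Tfam (-0.30) did not pass. Of 16 mitochondrial tRNA synthetases Fars2 rose (0.42), Yars2 (-0.38) and Lars2 (-0.50) fell, and Tars2 (0.23) did not pass.

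Cell type markers moved with the genotype, and their part in the results above was not tested. Hepatocyte markers rose in 9 of 14 cases and fell in 0, with a list mean of 10.14 to 10.30 in KO and 9.40 to 9.64 in WT arrays, among them Arg1 (2.69), Cps1 (1.32) and Cyp3a11 (1.06). Endothelial markers fell in 12 of 12 cases (list mean 4.70 to 4.91 in KO and 5.90 to 6.06 in WT arrays), as Cdh5 (-2.03), Eng (-1.56) and Lyve1 (-1.72) show. Of 13 Kupffer cell and macrophage markers 11 fell and 1 rose (4.48 to 4.53 and 5.29 to 5.41), with Ctss at -1.37, Cybb at -1.20 and C1qb at -1.37. The median change over the 13 was -0.87, and the marker that rose changed by 0.58. Of 11 stellate cell and fibroblast markers 4 fell, 1 rose and 6 did not pass (4.43 to 4.50 and 4.96 to 5.03). Those of smallest p were Rgs5 at -1.65, Dcn at -2.13 and Lrat at -1.47. The median change over the 11 was only -0.19, and the marker that rose changed by 0.99. Cholangiocyte markers passed in 0 of 4 cases (5.06 to 5.43 and 5.31 to 5.49; Epcam -0.25, Krt19 -0.24, Sox9 -0.12), and lymphocyte markers in 0 of 2 (4.03 to 4.34 and 4.09 to 4.27; Cd3e -0.06, Nkg7 0.06). RMA values have no zero, so no marker can be given as absent. In these bulk samples fewer cells of a type and less RNA per cell cannot be told apart.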

How the data were processed

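Total RNA of 8 hepatocyte samples was hybridised to Affymetrix arrays. The values deposited are log2 levels, which the authors made with RMA through the oligo package, per the submitters' processing notes (versions not given in the sources used here). This method corrects background, quantile-normalizes the arrays and summarises probes, which compresses changes of dim rows. Arrays have no read depth, so precision is limited by 4 arrays per group. Of 41345 rows, 23521 had 1 gene symbol in the platform annotation, 1814 had several and 16010 had none; only the first kind was named.

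Genes were tested where the mean of their brightest row lay above the 40th percentile of row means, in R 4.3.3 by the lmFit and eBayes functions of limma 3.58.1 (no trend, two-sided, Benjamini-Hochberg over all 15380 genes). Changes are KO minus WT with moderated SE and 95% intervals. The procedure was tested on simulated data with log2 changes of 0.3, 0.5 and 1 given to 67, 67 and 66 genes. It called 4.48%, 38.8% and 81.8% of them, so changes of the size of most members were mostly missed there. Far more genes were called in the real data (2119), which alters the adjustment, so these shares need not hold for the members. Promoters were searched in Python 3.11.15.

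The members and gene lists were chosen with earlier results of these data known. Named were the members past the threshold; in each subunit class those of largest change, brightest and dimmest row and smallest p short of the threshold; the stalk, 5S partner and S6 genes; paralogs with their parents; and up to 4 genes of smallest p per related list and 3 per cell type list. Alternatives covered the filter, genes with several rows, normalization, variance model, array weights, replicate block, threshold and leaving out each array; counting only rows with a mean of 8 or above was added after the data were seen. Replicate numbers were checked by correlating deviations of KO and WT arrays with the same number (0.06, 0.02, 0.26 and 0.21). Arrays with unlike numbers gave -0.29 to 0.15, below 0.26 and 0.21. With so few arrays this did not settle whether the samples were paired.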

Additional observations from a re-analysis of the deposited data

Results flagged for a closer look

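Among 78 groups of 4 arrays examined for named members and their gene groups, 3 held 1 array far from the other 3 (a gap to the nearest array above Dixon's 95% critical share of the range); chance flags about 1 in 20 groups. Rpl6 read 4.28 in KO replicate 3, where the other KO arrays read 5.02 to 5.16. Mrpl24 read 9.16 in WT replicate 4, where the other WT arrays read 9.47 to 9.48. Mrpl21 read 6.40 in WT replicate 1, where the other WT arrays read 6.56 to 6.59.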

How the results depend on the processing

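In the main setting 2 cytosolic members (1 large, 1 small subunit), 4 mitochondrial members (3 large, 1 small) and 62 genes of the related lists passed. Without a filter on dim genes the counts were 1 cytosolic (0 large) and 0 mitochondrial (0 large, 0 small) members and 40 related genes. More genes were adjusted over in that setting, and the variance prior was fitted anew. With the filter at the 20th percentile 3 members passed in all, 1 of them mitochondrial (0 large). At the 60th percentile 9 passed in all, among them the 6 of the main setting, with 2 cytosolic large and 2 mitochondrial small members. The mean of a gene's rows gave 7 members in all, among them the 6 of the main setting, with 2 cytosolic large ones. The row of highest variance gave 5 cytosolic (4 large) and 2 mitochondrial (1 large) members. Cyclic loess gave 7 members in all, with 2 cytosolic large ones. A further quantile normalization gave 9 in all, with 2 cytosolic large and 2 mitochondrial small ones. Both kept the 6 of the main setting. Arrays centred on their median gave 1 cytosolic (0 large) and 1 mitochondrial member (0 large) with 34 related genes. An intensity trend gave 16 members in all, 10 cytosolic (8 large, 2 small) and 6 mitochondrial (2 small). Its robust form gave 18 in all, with 12 cytosolic (10 large, 2 small) and 2 mitochondrial small ones. Array weights gave 8 in all, among them 5 of the 6 of the main setting, with 2 mitochondrial small ones. At an adjusted p of 0.1 the counts were 4 cytosolic (3 large) and 7 mitochondrial (5 large, 2 small), and at 0.01 they were 1 (0 large) and 0 (0 large, 0 small), with 21 related genes and 1071 of all genes. Among rows with a mean of 8 or above, a choice made after seeing the data, 1 cytosolic and 1 mitochondrial member passed and the mitochondrial median change was -0.15. With Mrps30 and Mrps18a in the large subunit 0 mitochondrial small members passed. With the replicate number as a block, 0 mitochondrial members passed (0 large, 0 small) and 2 cytosolic ones. The number of all genes called was 2215, against 2119 without the block. Whether the numbers pair the samples was not settled. Leaving out each array in turn gave 1 to 2 cytosolic members (0 to 1 large), 0 to 3 mitochondrial ones (0 to 2 large, 0 to 1 small) and 34 to 56 related genes. The difference between the class medians, 0.03, became 0.0058 with the mean of rows and -0.013 with the row of highest variance. The cytosolic median stayed between -0.14 and -0.06 and the mitochondrial one between -0.15 and -0.05 over all settings run. The ribosome biogenesis list had 22 to 39 calls in the settings other than the threshold of 0.01 (16), with 22 to 32 of its 32 main calls among them. Ptcd3, Nop56 and Eif4a2 moved with the rule for genes with several rows, as given beside their values. Signs turned for these genes, none of them past the threshold in the main setting or in the setting that turned them: Fau (-0.041 with the mean of rows, -0.099 with the row of highest variance, -0.0036 with array weights, -0.0063 to 0.039 without 1 array), Mrps14 (-0.0021 with weights, -0.021 to 0.13 without 1 array), Nkg7 (-0.00012, -0.050 to 0.18), Rpl39 (-0.027, -0.044 to 0.071), Rpl39l (-0.035, -0.11 to 0.16) and Rps27l (-0.045, -0.033 to 0.087); Rpl21 (0.026), Rplp0 (0.020) and Rplp1 (0.056) with the row of highest variance; Rps15 with cyclic loess (0.0021) and without 1 array (-0.14 to 0.11); and without 1 array Cd3e (-0.13 to 0.023), Rplp2 (-0.21 to 0.034) and Rps27 (-0.099 to 0.11). This list covers only the genes followed in every setting. Among the others, Rpl7a turned from -0.11 to 0.42 with the row of highest variance and passed there (adjusted p = 0.0320 in limma's test). It is 1 of the 5 cytosolic calls of that setting. The cause of these shifts was not tested. Signal limits what dim rows can show: 19 cytosolic and 15 mitochondrial tested members had a mean below 6, and the median SE of a tested member's change was 0.10 with 4 arrays per group.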
